A study of Caenorhabditis elegans with 6 samples.

Results

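Programmed cell death in the nematode Caenorhabditis elegans was examined through 10 genes taken by name from the deposited expression table. They are the BH3-only genes egl-1 and ced-13, the core genes ced-9, ced-4 and ced-3, the p53-like gene cep-1, and the engulfment genes ced-1, ced-6, ced-7 and ced-10. Each of the 10 names matched 1 row of the 46950 in the table. Of these, 9 reached at least 1 FPKM (fragments per kilobase of gene length, scaled to the reads of a library) in at least 3 of the 6 libraries, the filter that left 12174 genes for testing. The gene that did not was ced-13.

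The 6 libraries were made from polyadenylated RNA of whole worms. The treated group comprised 3 libraries (THz 1 to THz 3) from worms given terahertz radiation, for which the series title states 0.26 THz, and the reference group comprised 3 libraries (Control 1 to Control 3) from worms labelled as controls. For neither group do the labels state strain, sex, age, power density, exposure time or temperature. No label ties a library to its own culture, so the p-values speak only of library-to-library spread, part of which could be technical. Whole worms mix all tissues, so fewer cells of a type and less RNA per cell cannot be told apart in any result below.

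In C. elegans a dying cell is committed by a linear pathway. EGL-1, or CED-13, binds the Bcl-2-like protein CED-9, which releases the Apaf-1-like adaptor CED-4, which in turn activates the caspase CED-3. In the adult germ line CEP-1 induces egl-1 and ced-13 after DNA damage, while the core genes are also used for the physiological death of germ cells. Neighbouring cells then engulf the corpse through the CED-1, CED-6 and CED-7 branch and through a branch that ends, like the first, on the Rac GTPase CED-10.

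The read total recovered from the FPKM steps was 19079440 to 21977418 reads per library. In Control 1 it was 20308270, close to the 20304718 reads recovered over all genes. It is therefore read as the reads counted to genes, and the full sequencing depth is not known. Control 2 and Control 3 stood apart from each other in particular, with a Pearson correlation of log2(FPKM + 1) of 0.946, against 0.989 to 0.992 among the THz libraries. The summed level of 14 moulting and cuticle markers was 143 FPKM in Control 2 and 719.7 FPKM in Control 3, and ran from 238 to 318 FPKM in the THz libraries. Germ line and oocyte markers were abundant in all 6 libraries, at summed levels of 2181 to 2547 FPKM over 15 genes and 5475 to 6287 FPKM over 10 genes. Neuron markers summed to 335 to 372 FPKM over 10 genes and muscle markers to 1350 to 2267 FPKM over 8 genes. The 3 coelomocyte markers together reached only 1.21 to 3.36 FPKM, with none at 0 in every library. The labelled source, the whole body, was thus met by markers of germ line and soma in every library.

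The question asked of the 10 genes was whether their transcript levels differed after exposure. None of the 9 tested members passed the test of limma over all genes (adjusted p of at least 0.827 for each), and neither did any other gene, 0% of the 12174 tested. The largest positive difference among the members was that of the caspase gene ced-3, 1.15-fold on the log2(FPKM + 1) scale, and ced-3 was the 1 member whose THz libraries all lay above the control libraries. That placement was found for 6.44% of all genes tested. No member lay lower in every THz library, as 7.33% of all genes did. For the 8 tested members other than egl-1, the 95% intervals of the difference, not adjusted for the number of genes, lay within -0.33 (ced-1) and 0.40 (ced-3) on the log2 scale.

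The trigger egl-1 (WBGene00001170, chromosome V, 14431310 to 14432359, minus strand) encodes the BH3-only protein that starts cell death in somatic cells and in damaged germ cells. It measured 6.45, 5.54 and 9.15 FPKM in Control 1, 2 and 3, and 3.67, 6.83 and 7.34 FPKM in THz 1, 2 and 3. Control 3 was the highest and THz 1 the lowest library, and the groups overlapped. The difference was -0.23 ± 0.28 on the log2 scale (THz minus Control, SE, n = 3 each; limma adjusted p = 0.877), with a 95% interval from -0.88 to 0.41. These levels rest on 39 to 112 reads per library. For THz 1 the exact Poisson interval, which covers counting error alone, was 2.61 to 5.02 FPKM, below those of THz 2 (5.37 to 8.58 FPKM) and THz 3 (5.86 to 9.08 FPKM). The intervals of THz 2 and THz 3 overlapped. That of THz 1 overlapped the interval of Control 2 (4.28 to 7.06 FPKM). It lay below those of Control 1 (5.06 to 8.11 FPKM) and Control 3 (7.53 to 11.01 FPKM). Without THz 1 the difference changed sign, to 0.031 on the log2 scale (adjusted p = 0.997), so the sign for egl-1 rests on that library. Its size also depended on Control 3, without which the difference was -0.053 (adjusted p = 0.950).

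The second BH3-only gene, ced-13 (WBGene00000427, chromosome X, 8299119 to 8299654, minus strand), a target of CEP-1 after DNA damage, is listed at 0 FPKM in all 6 libraries. With its deposited length of 412 bases, 3 reads would give 0.331 to 0.382 FPKM in these libraries. It was not tested, and no difference was detectable at this depth.

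**Figure D1:**
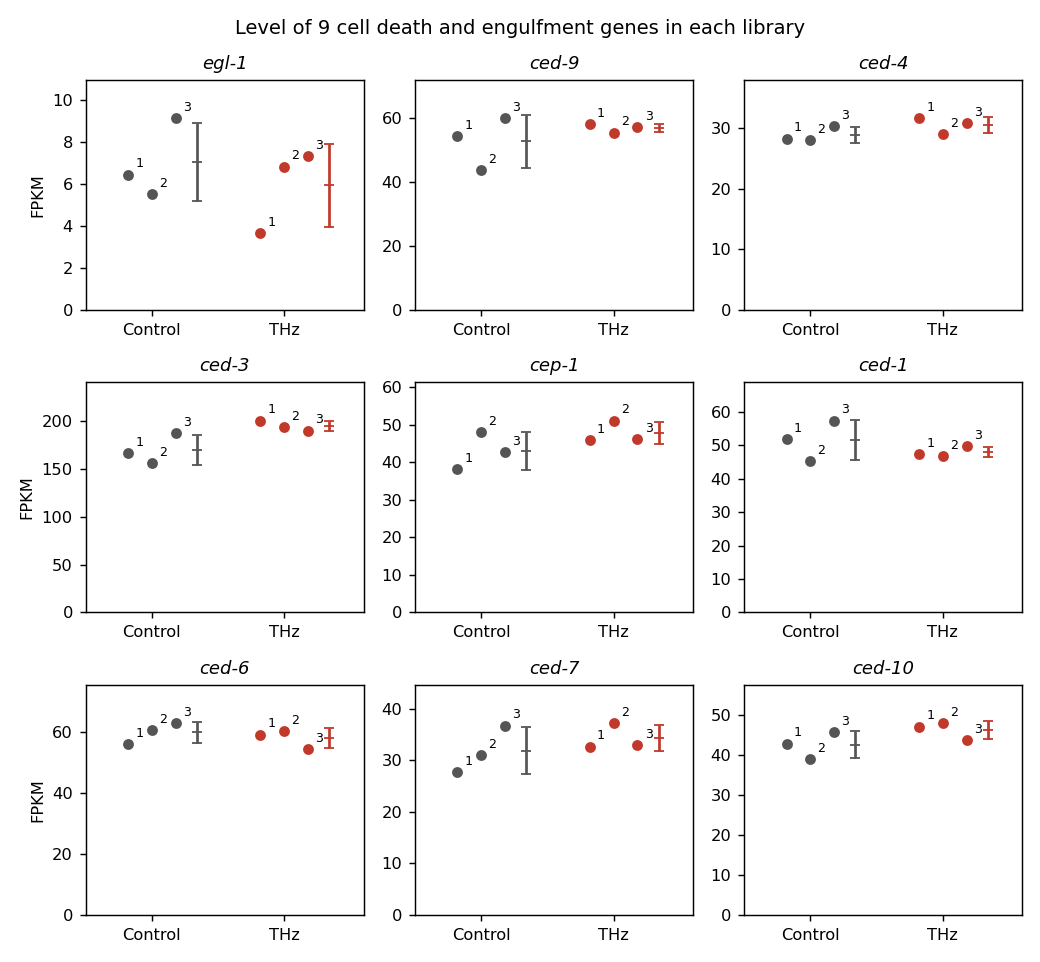
Level in FPKM (vertical axis, from 0, on a scale of its own in each panel) of the 9 members tested, for 3 Control and 3 THz libraries. Points are libraries marked with their replicate number, and bars give the mean and SD of each group; ced-3 is the panel in which the THz points (190 to 201 FPKM) all lie above the Control points (156 to 187 FPKM).

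Among the core genes, ced-9 (WBGene00000423, chromosome III, 10335172 to 10337536, plus strand) encodes the Bcl-2-like protein that holds CED-4 inactive. Its levels were 54.5, 43.7 and 60.04 FPKM in the control libraries and 58.1, 55.5 and 57.2 FPKM in the THz libraries. The THz values lay inside the range set by Control 2, the lowest, and Control 3, the highest. The difference of 0.12 ± 0.12 (SE) had an adjusted p of 0.853, and without Control 2 it was -0.0075 (adjusted p = 0.970). Most of the spread of ced-9 was thus between controls, where the SD was 8.31 FPKM, against 1.29 FPKM between THz libraries.

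The gene mev-1, which encodes a subunit of mitochondrial complex II, ends 3 bases before ced-9 on the same strand, and the pair is known as an operon. It did not share the pattern of ced-9. Its levels were 147.9, 145.04 and 121.9 FPKM in Control 1, 2 and 3, so that Control 3 was the lowest control for mev-1 and the highest for ced-9. In the THz libraries mev-1 measured 134, 141 and 143 FPKM, a difference of 0.016 on the log2 scale (adjusted p = 0.978).

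The adaptor gene ced-4 (WBGene00000418, chromosome III, 4852313 to 4855177, plus strand) varied least of the 9 tested members. It measured 28.2, 27.97 and 30.3 FPKM in the control libraries and 31.6, 28.97 and 30.8 FPKM in the THz libraries. All 6 values lay within 0.17 on the log2 scale, the groups overlapped, and the difference was 0.08 ± 0.09 (adjusted p = 0.875). The 95% interval, from -0.13 to 0.28, corresponds to 0.916-fold to 1.22-fold on the log2(FPKM + 1) scale.

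The caspase gene ced-3 (WBGene00000417, chromosome IV, 13198372 to 13204133, minus strand) encodes the protease that carries out the death programme. It measured 166.9, 156 and 187 FPKM in the control libraries and 201, 194 and 190.2 FPKM in the THz libraries. The groups did not overlap, Control 3 and THz 3 being the nearest libraries. The control mean was 170.1 ± 15.9 FPKM and the THz mean 195 ± 5.34 FPKM (SD over 3 libraries), and the log2 difference was 0.20 ± 0.09 (SE). The 95% interval ran from -0.000073 to 0.40, with an unadjusted p of 0.0501 and an adjusted p of 0.827. Leaving out a single library gave differences from 0.14 without Control 2 to 0.27 without Control 3. After quantile normalization the difference was 0.18 and the groups overlapped. The summed levels of germ line and of oocyte markers were also higher in every THz library (2462 to 2547 FPKM against 2181 to 2300 FPKM, and 6071 to 6287 FPKM against 5475 to 5759 FPKM), and their part in the value of ced-3 was not tested.

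The p53-like transcription factor gene cep-1 (WBGene00000467, chromosome I, 8324120 to 8328853, plus strand) measured 38.1, 48.2 and 42.8 FPKM in the control libraries and 46.1, 51.2 and 46.2 FPKM in the THz libraries. Control 2, the lowest library for 5 other members, was here the highest control. Since Control 2 lay above THz 1 and THz 3, the groups overlapped, and the difference was 0.15 ± 0.11 (adjusted p = 0.828). Without Control 2 the difference was 0.24 (adjusted p = 0.230). Of the BH3-only genes that CEP-1 is known to induce, egl-1 had a difference of -0.23 and ced-13 is listed at 0 in all libraries.

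Of the engulfment genes, ced-1 (WBGene00000415, chromosome I, 11851566 to 11868105, minus strand) encodes the transmembrane receptor with which the engulfing cell recognises a corpse. It measured 51.9, 45.4 and 57.5 FPKM in the control libraries and 47.3, 46.8 and 49.7 FPKM in the THz libraries. The groups overlapped through Control 2, and the difference was -0.10 ± 0.10 (adjusted p = 0.858). Without Control 2 all THz libraries lay below the remaining 2 controls, at a difference of -0.18 (adjusted p = 0.288).

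The ABC transporter gene ced-7 (WBGene00000421, chromosome III, 9570394 to 9580081, minus strand), which acts in both the dying and the engulfing cell, measured 27.7, 31.03 and 36.7 FPKM in the control libraries. In the THz libraries it measured 32.6, 37.2 and 32.9 FPKM, within the control range but for THz 2. The difference was 0.11 ± 0.12 (adjusted p = 0.871), and it was 0.018 without Control 1, its lowest library. A gene on the opposite strand, C48B4.13, shares 71 exonic bases with ced-7, and it measured 0.475 to 1.34 FPKM.

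The adaptor gene ced-6 (WBGene00000420, chromosome III, 5595771 to 5598066, plus strand), whose product relays the signal of CED-1, measured 56.1, 60.8 and 63.01 FPKM in the control libraries and 59.3, 60.5 and 54.3 FPKM in the THz libraries. The groups overlapped and the difference was -0.05 ± 0.08 (adjusted p = 0.909). It shares 83 exonic bases with wdr-37 on the other strand, which measured 88.2 to 115 FPKM. Library kits of the kind named in the labels keep no strand, so reads from the shared bases cannot be assigned to either gene.

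The Rac GTPase gene ced-10 (WBGene00000424, chromosome IV, 3506328 to 3509527, minus strand), on which both engulfment branches converge, measured 42.7, 38.97 and 45.7 FPKM in the control libraries and 47.01, 47.9 and 43.7 FPKM in the THz libraries. The groups overlapped because Control 3 exceeded THz 3, and the difference was 0.12 ± 0.09 (adjusted p = 0.828). The close paralog rac-2 was listed at 0.167 FPKM in Control 1 and 0 FPKM in the other 5 libraries. How reads common to ced-10 and rac-2 were counted is not stated, so the level of ced-10 is uncertain by that share. The gene tsg-101, which lies 103 bases away on the same strand, measured 54.01, 40.1 and 61.01 FPKM in the control and 56.9, 54.8 and 57.9 FPKM in the THz libraries, and shared with ced-10 the order of its controls.

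FPKM is a level per length, so the members can be ranked on it. Averaged over the 6 libraries, ced-3 was the highest at 183 FPKM, above 95.04% of the genes tested and 6.16-fold above ced-4, and it was higher than every other member in each library. A middle group followed, made of ced-6 (59.01 FPKM), ced-9 (54.8 FPKM), ced-1 (49.8 FPKM), cep-1 (45.4 FPKM) and ced-10 (44.3 FPKM). Neighbours in that group overlapped in range, and cep-1 exceeded ced-10 in 3 of 6 libraries. Below them came ced-7 (33.04 FPKM) and ced-4 (29.6 FPKM), whose ranges also overlapped, then egl-1 at 6.50 FPKM, above 35.4% of the genes tested.

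The ranking depends on the gene length used in the deposited table. For ced-3 the table lists 1650 bases where the WBcel235 annotation (Ensembl release 115) holds 2552 exonic bases, and for ced-1 it lists 2810 against 4875. For cep-1 the lengths were 1715 and 3278 bases, and for ced-10 they were 1203 and 1661. The 2 lengths differed by at most 1.04-fold for the other 6 members. Scaled to exonic bases, ced-3 remained the highest at 118 FPKM, or 4.03-fold above ced-4, but ced-1 (28.7 FPKM) and cep-1 (23.8 FPKM) moved from above ced-4 (29.3 FPKM) to below it on average. On that length the ranges of ced-1 (26.2 to 33.12 FPKM) and ced-4 (27.6 to 31.3 FPKM) overlapped, while every value of cep-1 (19.9 to 26.8 FPKM) lay below those of ced-4. The shares of tested genes below ced-3 and egl-1 rest on the deposited lengths of all genes. Of 4474 genes with transcripts differing in length, 13.3% had a deposited length within 10 bases of the mean transcript length. For 2.2% it was within 10 bases of the exonic bases, so these shares are uncertain too. Comparisons between libraries are untouched, since the length is the same in each.

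**Figure D2:**
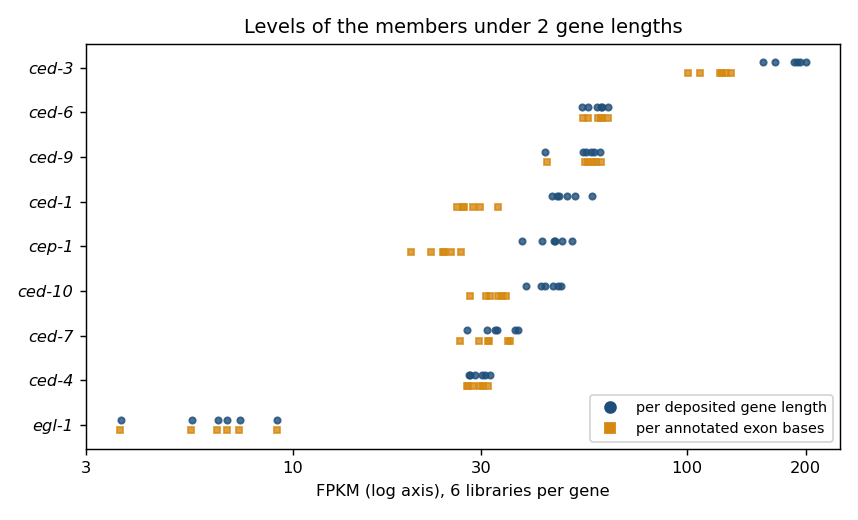
FPKM on a log axis for the 9 members tested, 6 libraries per gene, with the deposited gene length (circles) and with the exonic bases of the annotation (squares). Both lengths place ced-3 highest and egl-1 lowest, while ced-1, cep-1 and ced-10 shift to lower levels with exonic bases (28.7, 23.8 and 32.1 FPKM on average).

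Ratios between pathway members overlapped between the groups in each of the 6 pairs computed. The level of ced-9 relative to ced-4 was 1.93, 1.56 and 1.98 in Control 1, 2 and 3, and 1.84, 1.92 and 1.86 in THz 1, 2 and 3, all of them between Control 2 and Control 1. The level of ced-3 relative to ced-4 was 5.91, 5.58 and 6.19 in the controls and 6.35, 6.70 and 6.17 in the THz libraries, where THz 3 lay just under Control 3. The level of ced-9 relative to egl-1, the inhibitor over its antagonist, was 8.45, 7.88 and 6.56 in the controls and 15.8, 8.12 and 7.79 in the THz libraries, and THz 1 alone stood out.

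The controls that stood furthest apart, Control 2 and Control 3, also differed in the members. The difference of these single libraries is not on the footing of one between means of 3, and is given as a value. Control 3 minus Control 2 was 0.63 for egl-1, 0.45 for ced-9, 0.33 for ced-1 and 0.26 for ced-3 on the log2 scale. For ced-4 it was 0.11, for ced-7 it was 0.24 and for ced-10 it was 0.22. It was smallest for ced-6, at 0.05. For cep-1 it was -0.17, opposite in sign to the THz difference of 0.15. Control 2 was the lowest of all 6 libraries for 5 of the 9 tested members, and for 26.8% of all genes tested. The SD between controls on the log2 scale exceeded that between THz libraries for 7 of 9 members, the exceptions being egl-1 and ced-4, and for 79.1% of all genes tested.

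**Figure D3:**
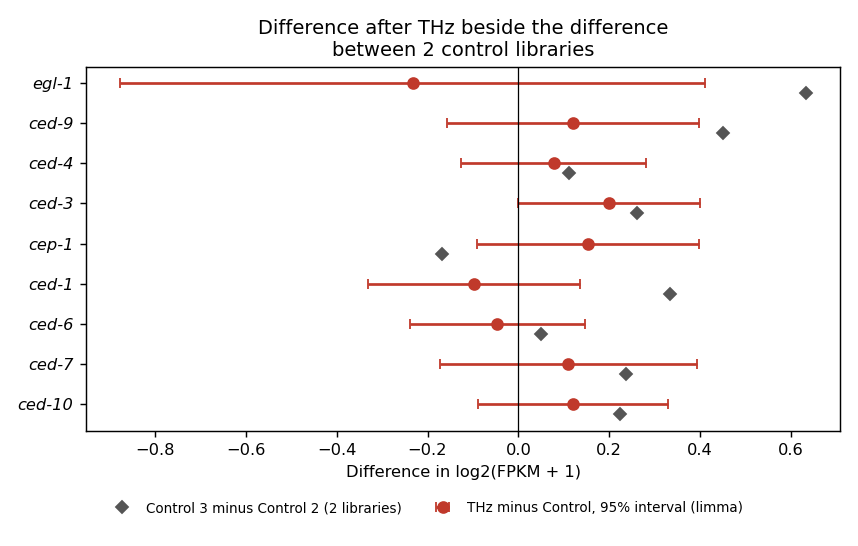
Difference in log2(FPKM + 1) for the 9 members tested. Circles with bars are THz minus Control with the 95% interval of limma (n = 3 libraries each), and diamonds are Control 3 minus Control 2, 1 library each; every interval includes 0, and for egl-1, ced-9, cep-1 and ced-1 the diamond lies beyond the end of the interval.

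Over the 9 tested members, 6 differences were above 0 (ced-9, ced-4, ced-3, cep-1, ced-7 and ced-10) and 3 below (egl-1, ced-1 and ced-6), beside 50.5% above 0 among all genes tested. Among genes reaching 5 FPKM in at least 3 libraries, as all 9 did, 58.5% were above 0. The median difference of the members was 0.11 on the log2 scale, beside 0.00 over all genes and 0.03 over those reaching 5 FPKM. The median size of a difference over all genes was 0.13. The difference was no larger in size than that median for 6 of the 9 members. Leaving out single libraries kept the median between 0.057 (without Control 2) and 0.15 (without Control 3).

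The 2 controls that stood apart bore on which members separated the groups. Without Control 3, ced-9, ced-4, ced-3, ced-7 and ced-10 were higher in every THz library, 5 of 9 members, while this held for 17.8% of all genes in the same libraries. Without Control 2, ced-3 and cep-1 were higher, as for 16.8% of all genes, and ced-1 was lower, as for 19.1%. Without Control 1, ced-3 was higher, as were 8.55% of all genes, and ced-6 was lower, as were 12.2%. With median-ratio scaling of all libraries, ced-3 and ced-10 were higher, beside 8.08% of all genes. After quantile normalization no member was higher, beside 8.95% of all genes, and ced-6 was lower, beside 5.05%. None of the members was called in either case, although limma called 1.92% of all genes without Control 2. With a weight estimated for each library, limma called 25.4% of all genes and 3 of the 9 members. These were ced-3 (difference 0.20, adjusted p = 0.0187), cep-1 (0.27, adjusted p = 0.0181) and ced-7 (0.23, adjusted p = 0.0452). The weights were 4.29 for Control 1, 0.180 for Control 2 and 0.293 for Control 3, so that the control mean of that fit is close to the value of Control 1, the lowest library for both cep-1 and ced-7. For ced-3 the lowest library was Control 2, and its difference was 0.20 with and without weights. What part the weights had in these calls was not tested.

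The profile of egl-1 over the 6 libraries, which had the widest range of the tested members (1.12 on the log2 scale), was compared with those of all genes tested after centring each on its mean. The nearest were the genes F31D5.7, C30G7.2 and F20G2.3, at root mean square distances of 0.090, 0.10 and 0.10 on the log2 scale. F31D5.7 measured 0.681 to 2.098 FPKM and F20G2.3 measured 1.95 to 6.26 FPKM, with THz 1 lowest and Control 3 highest in both. For ced-9, the member with the next widest range (0.45), the nearest were cdk-2, a cyclin-dependent kinase gene, pqn-59 and znf-207, at distances of 0.021, 0.024 and 0.025. In cdk-2 the controls were at 40.7, 32.5 and 46.6 FPKM and the THz libraries at 44.7, 42.4 and 43.1 FPKM, the order of controls seen for ced-9. These genes were picked as the nearest of all genes tested, so a shared order of libraries follows from the choice. Among the members themselves the closest pair was ced-3 and ced-10, at a distance of 0.054, and the 8 most distant pairs were those with egl-1, at 0.28 to 0.39. Profiles were centred but not scaled, so the wide range of egl-1 by itself places it far from the other members.

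Around the 10 members, 84 other genes of cell death and corpse clearance were listed by role, of which 80 were tested. None passed the limma test (adjusted p of at least 0.827). In all, 52 of the 80 differences (65%) were above 0, beside 50.5% of all genes, with a median of 0.05. Higher in every THz library were 8 of the 80 (10%, beside 6.44% of all genes), and lower in every THz library were 3 (3.75%, beside 7.33% of all genes). The shares differ among genes reaching 5 FPKM in at least 3 libraries, which not all of the 80 did. Of those genes, 58.5% were above 0, 8.3% were higher in every THz library and 6.05% were lower.

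Regulators of CEP-1 and of germ cell death had 14 of 14 tested differences above 0, with a median of 0.16. Above 0 were 50.5% of all genes, or 58.5% of those reaching 5 FPKM in at least 3 libraries. After quantile normalization 13 of 14 were above 0 (56.4% of all genes), and without Control 1 it was 11 (44.8%). All THz libraries lay above all controls for gld-1, an RNA-binding protein that represses cep-1 translation in the germ line, with 721, 769 and 753 FPKM in the controls and 862, 829.9 and 845 FPKM in the THz libraries. The same held for gla-3, an inhibitor of germ cell death (90.2 to 103.5 FPKM in the controls against 104.6 to 109 FPKM), and dpl-1, the DP partner of E2F (60.3 to 77.5 FPKM against 77.9 to 80.6 FPKM). In dpl-1 the nearest libraries were close, Control 3 at 77.52 FPKM and THz 3 at 77.88 FPKM. This placement, held by 3 of the 14, was found for 6.44% of all genes, or 8.3% of those reaching 5 FPKM. It was held by 6 with median-ratio scaling (8.08% of all genes) and by 8 without Control 3 (17.8%). The extremes of that list were clk-2, a DNA damage checkpoint gene, at 0.24 ± 0.12 (adjusted p = 0.827), and akt-1, a kinase that restrains CEP-1, at 0.03 ± 0.07.

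Regulators of egl-1 transcription had 5 of 12 differences above 0 and a median of -0.04. The direction of this list rests on single controls. Without Control 2, 1 of 12 was above 0, the median was -0.46 and 7 were lower in every THz library (19.1% of all genes), while the median was 0.18 without Control 3, with 8 of 12 above 0, and 0.034 without Control 1. The neuronal POU factor gene unc-86 had the lowest value, with a control mean of 4.02 ± 2.54 FPKM and a THz mean of 2.15 ± 0.781 FPKM (SD; log2 difference -0.56, adjusted p = 0.828), and dnj-11 the highest, at 0.10. The sex determination gene tra-1, which represses egl-1 in specific neurons, was lower in every THz library, as were 7.33% of all genes. It measured 15.7 to 18.4 FPKM in the controls and 14.2 to 15.7 FPKM in the THz libraries. Its nearest libraries, Control 2 at 15.75 FPKM and THz 3 at 15.74 FPKM, were almost equal. With median-ratio scaling or quantile normalization no gene of this list was lower in every THz library. Control 2 was the lowest of the 6 libraries for 8 of these 12 genes.

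Caspase relatives and death effectors had 11 of 16 tested differences above 0 and a median of 0.09. Higher in every THz library were 3 of the 16, beside 6.44% of all genes. One was drp-1, the mitochondrial fission gene (a control mean of 79.9 ± 5.64 FPKM against 90.2 ± 1.95 FPKM, log2 difference 0.18, adjusted p = 0.827). The others were icd-1, a subunit of the nascent polypeptide-associated complex (1021 to 1089 against 1180 to 1211 FPKM), and the nuclease gene crn-3 (33.4 to 42.4 against 42.5 to 45.4 FPKM). For crn-3 the nearest libraries, Control 2 at 42.39 FPKM and THz 1 at 42.47 FPKM, were almost equal. The lowest difference was that of crn-7, a nuclease gene, at -0.24, where Control 2 held 9.37 FPKM and the other 5 libraries 4.37 to 5.30 FPKM. The caspase relatives csp-2 and csp-3 were below the filter and were not tested.

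Genes of the second engulfment branch and of corpse recognition had 8 of 14 tested differences above 0 and a median of 0.01. Without Control 2 the median was -0.059 with 5 of 14 above 0, without THz 2 it was -0.050 with 6 of 14, and without Control 3 it was 0.090 with 12 of 14. The CrkII-like adaptor gene ced-2, which acts upstream of CED-10, was higher in every THz library, as were 6.44% of all genes. It measured 139.7 to 145 FPKM in the controls and 145.7 to 159.8 FPKM in the THz libraries. The lipid-binding protein gene nrf-5, whose product helps present phosphatidylserine to CED-1, was lower in every THz library, as were 7.33% of all genes. Its control mean was 35.4 ± 3.29 FPKM against 27.8 ± 3.59 FPKM (log2 difference -0.34 ± 0.12, adjusted p = 0.827). The bridging factor gene ttr-52, which works with it, had the highest difference, 0.31, but with 0.550 to 2.74 FPKM in the controls and 0.849 to 2.74 FPKM in the THz libraries. Genes of corpse maturation in the phagosome had 14 of 24 differences above 0 and a median of 0.04, or 10 of 24 and -0.010 without Control 1. Their extremes were piki-1, a phosphoinositide kinase gene, at 0.15, and snx-1, a sorting nexin gene, at -0.21. Of that list snx-1 was the 1 gene lower in every THz library (46.8 to 50.8 against 38.5 to 44.7 FPKM), beside 7.33% of all genes. The sorting nexin gene snx-6 was the 1 gene higher in every THz library, at 33.3 to 39.8 against 40.9 to 42.1 FPKM, beside 6.44% of all genes.

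**Figure D4:**
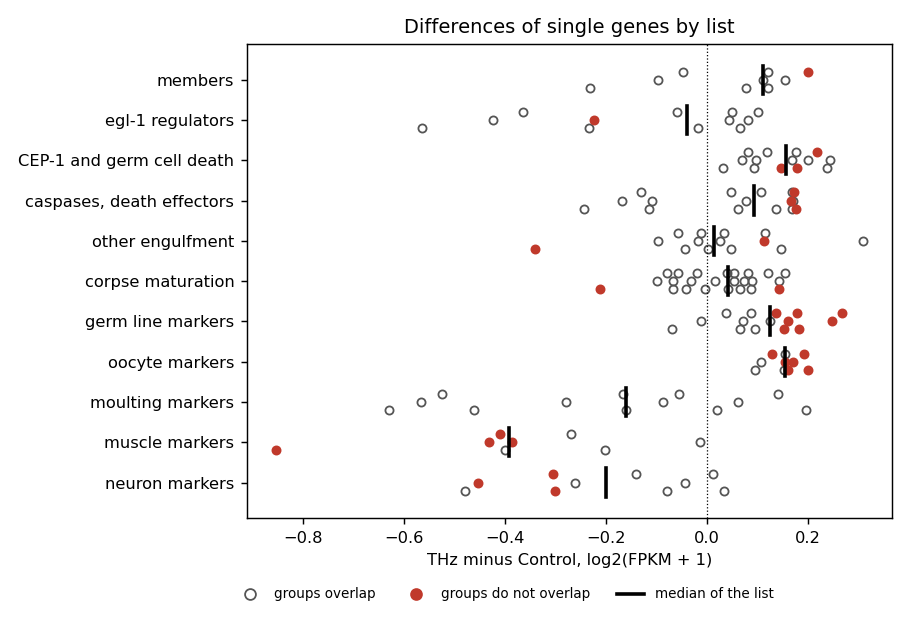
THz minus Control in log2(FPKM + 1) for single genes (points), by list, with the median of each list as a bar; filled points are genes whose 3 THz libraries all lie above or all below the 3 controls. The members have a median of 0.11, germ line markers 0.12, oocyte markers 0.15 and muscle markers -0.39, and no gene shown passes the limma test over all genes.

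Marker genes of the germ line had differences of the same sign as ced-3. Of 15 germ line markers, 13 had differences above 0, with a median of 0.12, and 7 were higher in every THz library. All 10 oocyte markers were above 0, with a median of 0.15, and 6 were higher in every THz library. That placement was found for 6.44% of all genes. After quantile normalization 3 germ line and 2 oocyte markers were higher in every THz library, beside 8.95% of all genes. The level of ced-9, ced-4 and ced-3 added together was 228 to 277.6 FPKM over the controls and 278.2 to 290.4 FPKM over the THz libraries, with Control 3 close to THz 2 and THz 3. Of these genes only ced-3, the most abundant, separated the groups by itself. The sum over all members overlapped (457.7 to 532.4 FPKM in the controls against 512.4 to 528.8 FPKM). So did that over the engulfment members (176 to 203 FPKM against 181 to 192 FPKM). No germ line or oocyte marker passed the limma test (adjusted p of at least 0.827), and their part in the values of the other members was not tested either.

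Muscle and neuron markers had mostly negative differences. All 8 muscle markers were below 0 (7 after quantile normalization), with a median of -0.39. Lower in every THz library were 4 of them, beside 7.33% of all genes. The muscle markers summed to 1519 to 2267 FPKM in the controls against 1350 to 1581 FPKM in the THz libraries. None of them passed the limma test. Of 10 neuron markers 8 were below 0, with a median of -0.20, and 3 were lower in every THz library, beside 7.33% of all genes. The neuron median was -0.087 after quantile normalization, with 7 of 10 below 0. It was -0.11 without THz 1, with 6 of 10 below 0, and -0.34 without THz 2, with 9 of 10. The 4 markers of the gonadal sheath, the somatic cells that engulf dead germ cells, summed to 98.4 to 117 FPKM in the controls against 94.5 to 102 FPKM in the THz libraries, with overlapping groups. Moulting markers had a median of -0.16 over 13 tested genes, with Control 2 the lowest library for 10 of them. Their median was -0.58 without Control 2, with 8 of 13 lower in every THz library (19.1% of all genes), and 0.14 without Control 3, with 8 of 13 above 0. Sperm markers (16.6 to 49.9 FPKM in the controls against 25.01 to 37.4 FPKM), early embryonic genes (19.3 to 33.9 against 25.4 to 32.1 FPKM), intestinal markers (2759 to 3624 against 2716 to 3457 FPKM) and coelomocyte markers (2.68 to 3.25 against 1.21 to 3.36 FPKM) overlapped in their sums. Whether these tissue markers bear on the engulfment genes was not tested.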

How the data were processed

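The authors deposited 1 FPKM value per gene and library, beside its position, length in bases and name. Per the labels' protocols, RNA was extracted with TRIzol and libraries were made with the TruSeq v2 kit. Build WBcel235 and the tools STAR, HTSeq 0.5.4 and DESeq 1.10.1 are listed, with no role given, per the submitters' processing notes.

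The deposited FPKM were taken to log2(FPKM + 1). Group was the single term of a two-sided limma test (limma 3.58.1, R 4.3.3, variance modelled on mean level), run on genes reaching 1 FPKM in 3 or more libraries. P-values were adjusted by Benjamini-Hochberg over all 12174 genes and called under 0.05. This scale understates changes of genes with low FPKM. Reads were recovered as FPKM times length in units of the smallest step of a library. Of the values above 0, 88.8% came out whole within 0.05 reads, so recovered reads served for the read total of each library and as an alternative with voom. Interval and floor values cover counting error.

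The members, gene lists and tests were chosen with earlier results of these data known. All members are named. Other genes are named where the groups do not overlap or where they are the extremes of a list. Of the listed names, cyt-1 and opt-2 matched no row. The neighbour mev-1 was added after its values were seen, as were tsg-101, wdr-37 and C48B4.13. The fit was run on simulated reads as a check of the code. No simulated library stood apart from its group, unlike the controls here, so that run does not bear on the count of genes called. Alternatives were other pseudocounts, filters, scalings and variance models, voom, library weights, a replicate block and leaving out each library. Positions are as deposited, and overlaps come from Ensembl release 115. Figures used matplotlib 3.10.9.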

Additional observations from a re-analysis of the deposited data

How the results depend on the processing

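The count of genes called by limma was 0, with 714 at an unadjusted p under 0.05 (488 of them lower after THz), and 0 with voom, with 695. It was 3092 with library weights and ran from 0 to 234 when a library was left out, 234 being without Control 2. After quantile normalization 371 of 733 genes at an unadjusted p under 0.05 were lower. Members higher in every THz library numbered 1. They were 2 with median-ratio scaling (ced-3 and ced-10), 0 with quantile normalization, and 1 to 5 when a library was left out. The share of all genes with that placement was 6.44%, and became 8.08%, 8.95% and 8.55% to 17.8% under the same settings. Members lower in every THz library numbered 0. There was 1 with quantile normalization (ced-6), and 0 to 1 when a library was left out, while the share of all genes went from 7.33% to 5.05% and to 9.08% to 19.1%. Of 153 values of member differences under 17 alternatives, 45 equal the reported ones by construction, since 5 of the alternatives change only the test, the genes tested or a balanced term. Among the rest, 2 changed sign, ced-9 at -0.0075 without Control 2 and egl-1 at 0.031 without THz 1, and 3 passed the threshold, all with library weights. Leaving out single libraries gave -0.0075 to 0.22 for ced-9 and -0.39 to 0.031 for egl-1. The cause was not tested.

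Same-numbered libraries did not deviate together from their group means (correlations -0.012, -0.14 and 0.028), so the numbers are not taken as pairs. With the replicate number as a block 0 genes were called, 532 had an unadjusted p under 0.05, and ced-3 had an adjusted p of 0.881. The block cannot change a difference in this balanced design (0.20 for ced-3). Depth limits ced-13, listed at 0, to differences above 0.331 to 0.382 FPKM, and egl-1 rests on 39 to 112 reads.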
